A study of Mus musculus with 8 samples.

Results

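The genes described here encode lysosomal proteins other than the cathepsins and legumain, together with a regulator. They are 36 of the 18193 genes that a probe set names on Affymetrix Mouse 430_2 arrays, and were taken by name as lysosomal hydrolases with their activators, lysosomal membrane proteins, progranulin, subunits of the vacuolar proton pump (V-ATPase) and the transcription factor TFEB. All 36 were measured. A gene with several probe sets was read from the probe set with the highest mean intensity over the arrays.

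The lysosome is an acidic compartment in which hydrolases break down material that arrives by endocytosis, phagocytosis and autophagy. The V-ATPase pumps protons into its lumen, membrane proteins such as LAMP1 and LAMP2 line its limiting membrane, and most of its enzymes act only at low pH. Loss of single enzymes causes storage diseases, many of which damage the brain, and in nervous tissue microglia and macrophages, which digest dying cells, are rich in lysosomes. TFEB, a basic helix-loop-helix factor, binds a palindromic element at the promoters of many of these genes.

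RNA came from C57/BL6 mouse brain at embryonic stage E12.5, from embryos of the genotype Nestin Cre+, Rest GTi/GTi (here Cre+ Rest GTi/GTi) and from Rest GTi/GTi embryos as controls, with 4 biological replicates of each genotype. Both genotypes carry on both Rest alleles a gene trap that was inverted to restore splicing. Cre, expressed from the Nestin promoter in neural progenitors, turns the trap back and removes the repressor REST there, while cells that never expressed Nestin Cre keep their REST. All Cre+ Rest GTi/GTi arrays and none of the controls carry the transgene, so that Cre and loss of REST cannot be told apart. Whether an array holds 1 embryo or a pool is not stated, and the p-values therefore measure the spread between these 8 arrays.

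The arrays correlated with each other at 0.982 to 0.991 over all probe sets. The deposited array medians ran from 40.9 to 68, and all intensities below are after quantile normalization. *Rest* itself read 163.1, 216.7, 84.4 and 133.7 in the Cre+ Rest GTi/GTi arrays (replicates 1 to 4) and at 170.1, 271.8, 211.1 and 198.3 in controls, a log2 difference of -0.51 in overlapping groups (exact permutation test over arrays, two-sided p = 0.143). Genes of mesenchyme and meninges set Cre+ Rest GTi/GTi replicates 1 and 2 apart, with *Col3a1* at 4864 and 4571 against 114.7 to 555 on the other 6 arrays. *Xist*, the RNA of the inactive X chromosome, gave a female signal in control replicate 2 (7875) and control replicate 3 (8247), and lay at 57.8 or less on the other 6 arrays. *Hoxb3*, expressed in caudal neural tissue, also varied between arrays, at 1.8, 178.7, 746 and 434.5 in the Cre+ Rest GTi/GTi arrays (replicates 1 to 4) and at 172.6, 6.9, 9.3 and 12.8 in controls. Its part in the results was not tested.

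The promoters of the lysosomal genes are shown first because some of them carry an element that the choice of genes did not use. Windows from 250 bases before to 50 bases after the start of the gene were read from RefSeq on GRCm38.p6, where 32 of the 36 genes were found. The E-box CACGTG, a palindrome that reads the same on both strands, stood in 9 of 32 windows (28.1%), against 2187 of 27025 windows over all genes (8.09%). Those 27025 include genes that the arrays do not name, while all of the 32 were measured. The longer palindrome TCACGTGA, which contains the E-box and has the letters of the element that TFEB binds, stood in 3 of 32 (9.38%) against 1.12% of all windows. The 4 windows below are shown because they hold several copies or, in *Gaa*, because it had the smallest p of the genes with an E-box. They are in the direction of transcription, with the E-box or the longer palindrome in capitals. Each position is that of the first letter in capitals, which in a longer palindrome is the base before its E-box. A match of letters is a description of the sequence and not a measured binding site.

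*Lamp1*, chr8:13159080-13159160, plus strand, 4 E-boxes at 61, 45, 28 and 15 bases before the start: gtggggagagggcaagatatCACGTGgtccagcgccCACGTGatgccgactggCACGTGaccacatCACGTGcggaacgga

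*Gla*, chrX:134601173-134601253, minus strand, 2 longer palindromes with E-boxes at 228 and 195 bases before the start: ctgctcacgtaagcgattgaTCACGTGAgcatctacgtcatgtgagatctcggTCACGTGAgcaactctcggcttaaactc

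*Mcoln1*, chr8:3500428-3500500, plus strand, E-boxes at 71 and 46 bases before the start, the nearer within a longer palindrome: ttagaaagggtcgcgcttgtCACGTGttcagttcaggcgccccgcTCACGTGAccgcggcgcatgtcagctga

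*Gaa*, chr11:119267803-119267848, plus strand, 1 E-box at 140 bases before the start: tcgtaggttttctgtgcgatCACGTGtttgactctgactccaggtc

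*Arsa*, *Naglu*, *Glb1* and *Sgsh* each held 1 E-box before the start, and in *Atp6v0d1* the longer palindrome ran across the start itself. *Grn*, *Hexa*, *Gusb*, *Lipa* and *Cd68*, the 5 genes with the smallest p in the comparison below, held no E-box in the window.

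None of the 36 genes passed the test between the genotypes. After limma with Benjamini-Hochberg adjustment over 45037 probe sets, 0 of 36 were called higher and 0 lower in Cre+ Rest GTi/GTi brain at an adjusted p of 0.05, where 0.214% of all genes were called higher (39) and 0.011% lower (2). At an unadjusted p under 0.05, 10 of the 36 were higher and 0 lower, beside 3.94% of all genes higher and 3.03% lower. In 9 of the 36 every Cre+ Rest GTi/GTi array lay above every control, and in 0 below, where 2.48% of all genes lay above and 2.15% below. The median log2 fold change was 0.07 over the 36 and -0.0014 over all genes, and 31 of the 36 lay above 0, beside 9002 of all 18193 genes. That split rests in part on the scaling, with 23 above 0 after scaling to a common median and 35 with no scaling, where the median of all genes was -0.04 and 0.05. With no scaling, 0 of the 36 had groups that did not overlap, where 206 of all genes lay above and 86 below. The methods' t-test called 1 of the 36, *Lipa*, with equal variances and 0 with unequal variances. A fold change is here the ratio of intensities after 16 was added, which understates differences in dim genes.

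**Figure D1:**
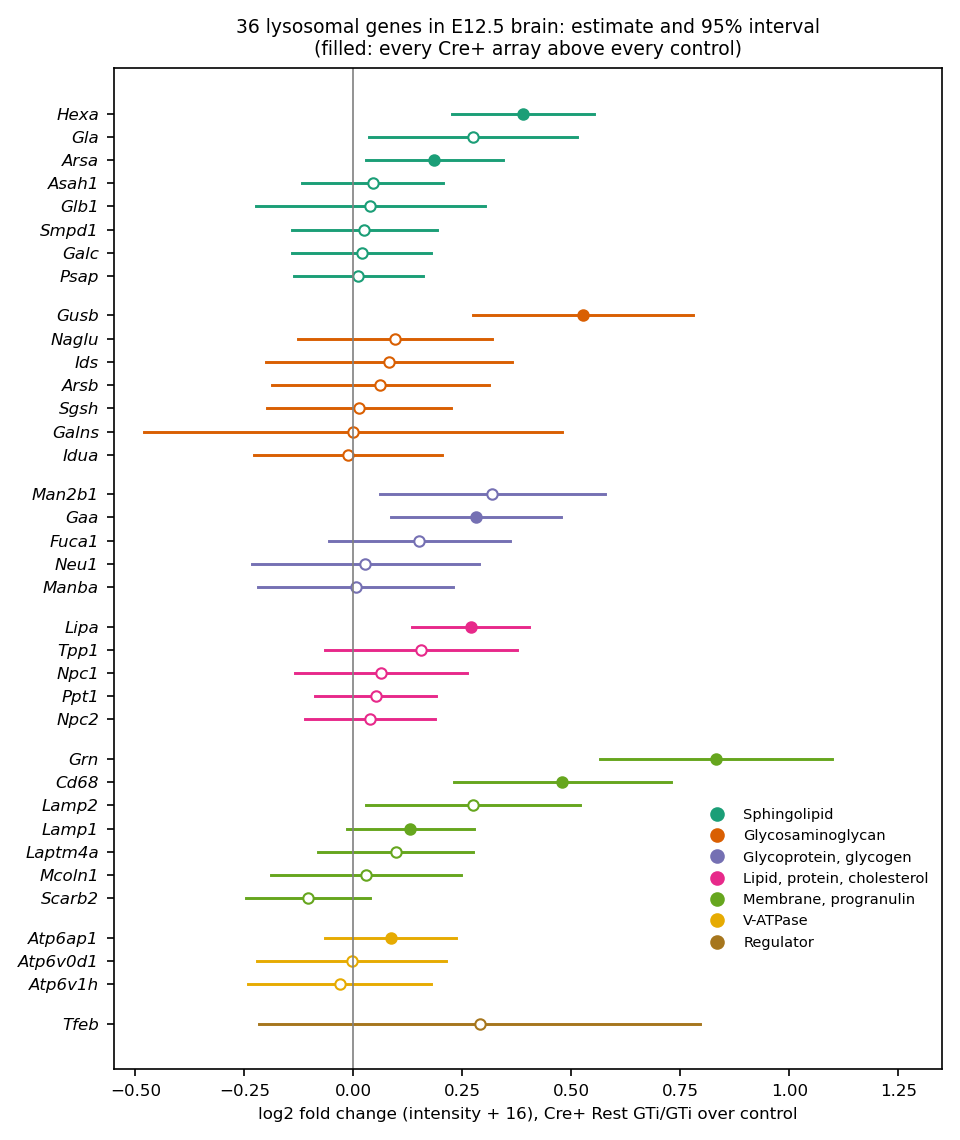
Log2 fold change (intensity + 16) of each of the 36 lysosomal genes between the 4 Cre+ Rest GTi/GTi and the 4 control arrays, grouped by role, with the 95% interval of the limma fit as a bar. Filled points mark the 9 genes with every Cre+ array above every control, and *Grn* lies farthest to the right at 0.83.

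Progranulin, encoded by *Grn*, is a secreted glycoprotein that reaches the lysosome and is cut there into granulins. Its intensity was 1337, 1503, 1175 and 1048 in the Cre+ Rest GTi/GTi arrays (replicates 1 to 4) and 629.5, 733.8, 715.9 and 716.3 in controls. The lowest Cre+ array stood well above the highest control, and the 2 arrays with mesenchyme signal were the highest. The means were 1266 ± 197.5 and 698.9 ± 47 (SD, n = 4), a 1.78-fold difference. The log2 fold change of 0.83 ± 0.12 (SE) had an adjusted p of 0.0525 by limma, just above the threshold. This probe set can bind more than 1 transcript. The gene-specific one read 317.4, 431.8, 304.6 and 307 in Cre+ Rest GTi/GTi arrays and 170.8, 260.1, 216.3 and 276.1 in controls, again without overlap, at 0.54 and an adjusted p of 0.566. The remaining probe set gave 0.81 (adjusted p = 0.166). *Grn*, *Gusb* and *Hexa* stand in a list that the study chose on these samples, so that their direction is not independent evidence.

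*Cd68* encodes a heavily glycosylated protein of the lysosomal membrane that is abundant in macrophages and activated microglia. Its intensity was 111.3, 139.7, 106.4 and 101.9 in Cre+ Rest GTi/GTi arrays and 71.5, 71.3, 90.1 and 77.5 in controls. The groups did not overlap, and replicate 2 was the highest array. The log2 fold change was 0.48 ± 0.11, with an adjusted p of 0.326 by limma.

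The 2 main proteins of the limiting membrane differed from each other in overlap and size. *Lamp2*, 1 of whose isoforms serves as receptor in chaperone-mediated autophagy, lay at 1208, 1317, 1125 and 934.3 in the Cre+ Rest GTi/GTi arrays (replicates 1 to 4) and at 909, 972.5, 889.5 and 982.9 in controls. Here replicate 4 fell among the controls while the other 3 arrays lay above them, and the log2 fold change was 0.27 ± 0.11 (adjusted p = 0.688). *Lamp1* lay at 2320, 2499, 2322 and 2397 in Cre+ Rest GTi/GTi arrays and at 2128, 2112, 2300 and 2168 in controls. These groups did not overlap, though control replicate 3 came within a narrow margin of the lowest Cre+ array, and the log2 fold change was 0.13 ± 0.06 (adjusted p = 0.763).

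*Scarb2* encodes LIMP-2, a receptor of the lysosomal membrane, and had the lowest log2 fold change of the 36, -0.11 ± 0.06. Its intensity was 2112, 2086, 2257 and 2069 in Cre+ Rest GTi/GTi arrays and 2261, 2244, 2369 and 2297 in controls. Only Cre+ replicate 3 reached into the range of the controls (exact permutation test, two-sided p = 0.0571). A second probe set of the same gene gave 0.04, of the opposite sign. *Laptm4a*, a membrane protein with several spans, gave 0.10 ± 0.08, with 3796 and 3729 in Cre+ replicates 1 and 2, and 3239 and 3212 in replicates 3 and 4, which lay within the control range of 3211 to 3287. *Mcoln1*, which encodes the calcium channel TRPML1 and has a pair of E-boxes in its promoter window, gave 0.03 ± 0.10.

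Among the enzymes and the activator of sphingolipid breakdown, 8 of 8 had a positive fold change, 3 had an unadjusted p under 0.05 and the median was 0.04. Under some of the alternatives described below, *Galc*, *Smpd1*, *Glb1*, *Psap* and *Asah1* changed sign. *Hexa* encodes the alpha subunit of beta-hexosaminidase, which cleaves GM2 ganglioside and is deficient in Tay-Sachs disease. Its intensity was 943, 1043, 912.1 and 950.5 in Cre+ Rest GTi/GTi arrays and 697.2, 719.2, 780.2 and 724.7 in controls. The 4 Cre+ arrays lay close together and well above the controls, with means of 962 ± 56.2 and 730.3 ± 35.3 (SD, n = 4). The log2 fold change was 0.39 ± 0.07, a 1.31-fold difference, with an adjusted p of 0.170 by limma.

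*Arsa* encodes arylsulfatase A, the enzyme lost in metachromatic leukodystrophy. Its intensity was 302.6, 351.2, 325.7 and 335.5 in Cre+ Rest GTi/GTi arrays and 291.1, 294, 288.9 and 273.2 in controls. The groups did not overlap, and Cre+ replicate 1 lay nearest the controls, for a log2 fold change of 0.19 ± 0.07 (adjusted p = 0.674). *Gla*, for alpha-galactosidase A, lay at 93.2, 87.8, 75 and 69.9 against 63, 61.9, 57.5 and 75.5. Control replicate 4 lay above Cre+ replicate 4, and the 2 arrays with mesenchyme signal were again highest (log2 fold change 0.27 ± 0.10, adjusted p = 0.676).

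The other 5 sphingolipid genes lay within 0.05 of 0. These were *Asah1* for acid ceramidase at 0.04, *Glb1* for beta-galactosidase at 0.04, *Smpd1* for acid sphingomyelinase at 0.03, *Galc* for galactosylceramidase at 0.02 and *Psap* for the saposin precursor at 0.01. The upper limits of their 95% intervals ran from 0.16 for *Psap* to 0.30 for *Glb1*. *Psap* lay at 2083 to 2295 in Cre+ Rest GTi/GTi and 2076 to 2273 in control arrays. For *Smpd1* a second probe set gave -0.34.

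**Figure D2:**
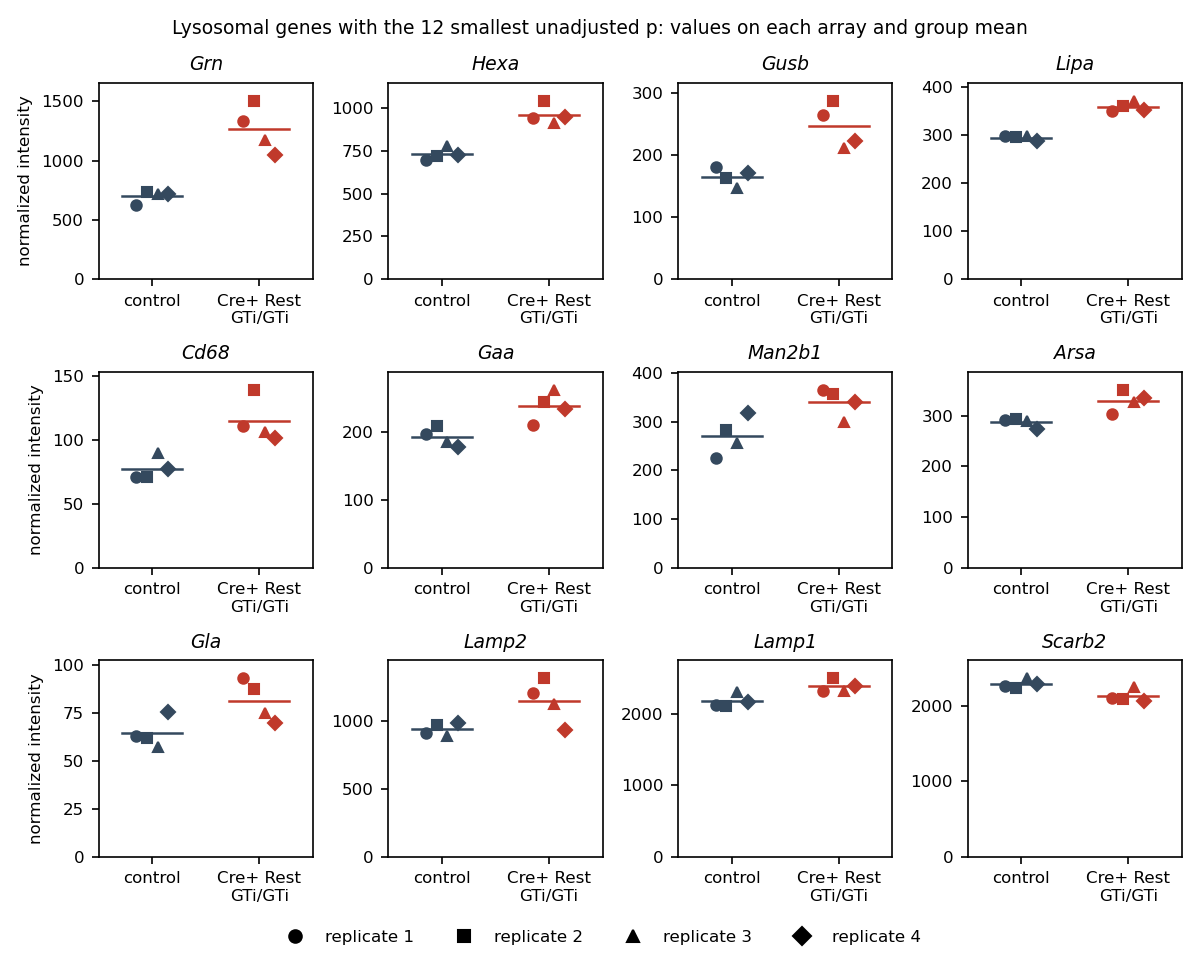
Normalized intensity on each array (symbols mark the replicate numbers, lines the group means, axes start at 0) for the 12 lysosomal genes with the smallest unadjusted p. In *Grn*, *Hexa*, *Gusb*, *Lipa*, *Cd68*, *Gaa*, *Arsa* and *Lamp1* the groups do not overlap, while in *Man2b1*, *Gla*, *Lamp2* and *Scarb2* they do.

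The enzymes of glycosaminoglycan breakdown, whose losses cause the mucopolysaccharidoses, had 1 gene of 7 at an unadjusted p under 0.05 and a median of 0.06. That gene was *Gusb*, for beta-glucuronidase. Its intensity was 263.9, 286.7, 210.1 and 222.7 in the Cre+ Rest GTi/GTi arrays (replicates 1 to 4) and 179.6, 162.7, 146.5 and 171 in controls. All 4 Cre+ arrays exceeded the highest control, replicates 1 and 2 by more than replicates 3 and 4. The means were 245.8 ± 35.6 and 164.9 ± 14.1 (SD, n = 4), and the log2 fold change was 0.53 ± 0.11, or 1.44-fold (adjusted p = 0.275). Its second probe set gave 0.29, with overlap.

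For the other 6 of these enzymes the log2 fold change lay between -0.01 and 0.09. They were *Naglu* at 0.09, *Ids* for iduronate sulfatase at 0.08, *Arsb* at 0.06, *Sgsh* at 0.01, *Galns* at -0.00011 and *Idua* for iduronidase at -0.01. *Ids* lay at 3375 to 4738 in Cre+ Rest GTi/GTi and 3153 to 4026 in control arrays. *Galns* had the widest interval of the enzymes, -0.48 to 0.48, since Cre+ replicate 1 read 41.8 and the other 3 Cre+ arrays 81.9 to 98.4.

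Of the hydrolases that trim glycoproteins and glycogen, 5 of 5 had a positive fold change, 2 had an unadjusted p under 0.05 and the median was 0.15. Under some of the alternatives described below, *Neu1* and *Manba* changed sign. *Man2b1* encodes lysosomal alpha-mannosidase and lay at 365.6, 355.8, 298.5 and 339.8 in Cre+ Rest GTi/GTi arrays and at 225.2, 282.5, 257 and 317.6 in controls. Control replicate 4 lay above Cre+ replicate 3, and the controls were spread more widely than the Cre+ arrays. The log2 fold change was 0.32 ± 0.11 (adjusted p = 0.647), and a second probe set gave 0.32 as well.

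*Gaa* encodes acid alpha-glucosidase, the glycogen-degrading enzyme that is deficient in Pompe disease. It lay at 209.8, 243.9, 261.8 and 232.7 in Cre+ Rest GTi/GTi arrays and at 196.8, 207.7, 185.2 and 178.2 in controls. The groups were separated by a small gap between Cre+ replicate 1 and control replicate 2. The log2 fold change was 0.28 ± 0.09 (adjusted p = 0.561), and 0.24 by a second probe set whose groups did not overlap either. *Fuca1* for alpha-fucosidase gave 0.15 ± 0.09, *Neu1* for sialidase 0.03 ± 0.11 and *Manba* for beta-mannosidase 0.01 ± 0.10.

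The 5 genes of lipid and protein breakdown and cholesterol export also had fold changes above 0, with a median of 0.06, and only *Lipa* had an unadjusted p under 0.05. *Npc1*, *Npc2* and *Ppt1* changed sign in 1 of the alternatives each. *Lipa* encodes lysosomal acid lipase, which frees cholesterol from its esters. Its intensity was 350.5, 360.7, 371.4 and 352.1 in Cre+ Rest GTi/GTi arrays and 297.4, 297, 298.3 and 286.8 in controls. Both groups were tight, with SDs of 9.58 and 5.38 around means of 358.7 and 294.9, and did not overlap. The log2 fold change was 0.27 ± 0.06 (adjusted p = 0.303). This probe set can bind more than 1 transcript. Of the gene-specific probe sets of *Lipa*, the brighter gave 0.41 with overlap and the other 0.27 without overlap. *Tpp1*, a serine peptidase lost in a neuronal ceroid lipofuscinosis, gave 0.16 ± 0.10. *Ppt1*, a palmitoyl thioesterase, gave 0.05, and the cholesterol transporters *Npc1* and *Npc2* gave 0.06 and 0.04, *Npc2* being read at 4175 to 4646 in Cre+ Rest GTi/GTi and 4219 to 4518 in control arrays.

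The V-ATPase had the lowest median log2 fold change of the roles, -0.0037 over 3 genes with 0 at an unadjusted p under 0.05. The sphingolipid median of 0.04 was close to it. That order of the roles is a description with no test, and *Atp6v0d1*, whose value is this median, changed sign in 11 of the 24 alternatives. *Atp6v0d1*, a subunit of the membrane sector, lay at 2655, 2866, 3470 and 2883 in the Cre+ Rest GTi/GTi arrays (replicates 1 to 4) and at 2827, 3107, 3111 and 2815 in controls. *Atp6v1h*, of the cytosolic sector, lay at 1418, 1496, 1846 and 1617 against 1706, 1554, 1632 and 1597. In both genes Cre+ replicate 1 was the lowest and Cre+ replicate 3 the highest of all 8 arrays, so that the Cre+ arrays enclosed the controls. The log2 fold changes were -0.0037 (95% interval -0.22 to 0.21) and -0.03 (-0.24 to 0.18). A second probe set of *Atp6v1h* gave 0.37 at an unadjusted p of 0.0524. *Atp6ap1*, an accessory protein needed for assembly of the pump, lay at 1428, 1400, 1578 and 1415 in Cre+ Rest GTi/GTi arrays and at 1344, 1383, 1389 and 1360 in controls. Its groups did not overlap, but the difference was small at 0.09 ± 0.07 (adjusted p = 0.870). The only probe set of *Atp6ap1* can bind more than 1 transcript.

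*Tfeb* was the only one of the 36 genes whose mean lay below the added constant of 16. It read 6.1, 25.4, 10.6 and 4.3 in Cre+ Rest GTi/GTi arrays and 5.6, 4.5, 10.7 and 2.6 in controls. A single array, Cre+ replicate 2, stood out, and the log2 fold change of 0.29 had a 95% interval from -0.22 to 0.80, so that a change of this transcript was not detectable at this intensity. The genes with an E-box in the promoter window had a median log2 fold change of 0.09 (9 genes, 3 with an unadjusted p under 0.05) and those without also 0.09 (23 genes, 7), a description with no test.

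Averaged over the 36 genes on the log2 scale, relative to the mean of the controls, the Cre+ Rest GTi/GTi arrays stood at 0.11, 0.21, 0.18 and 0.08 and the controls at -0.01, -0.01, 0.01 and 0.01. The mean of each Cre+ array thus lay above all controls, by an amount that was small beside the difference of *Grn* alone. The role lists varied: the membrane proteins with progranulin stood at 0.11 to 0.36 on the Cre+ arrays, the sphingolipid enzymes at 0.07 to 0.15, and the V-ATPase at -0.10 to 0.21.

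**Figure D3:**
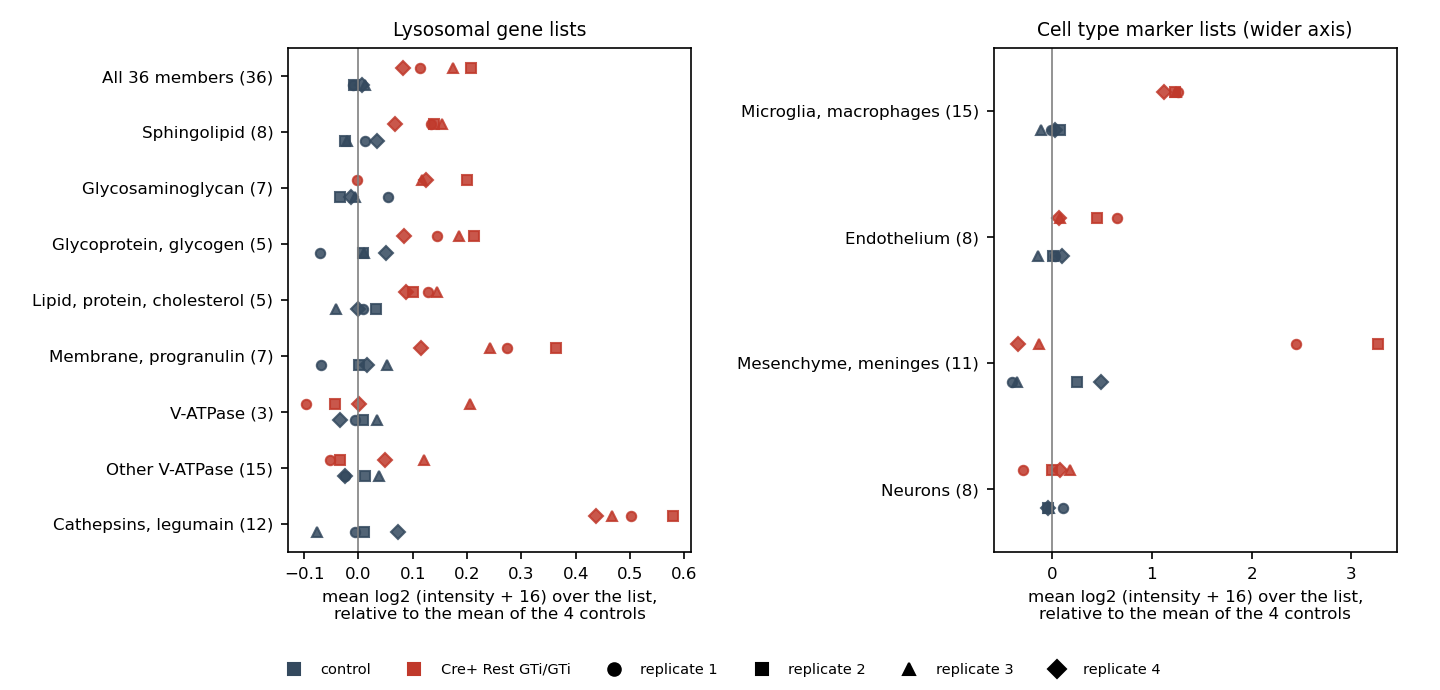
Gene list means per array on the log2 (intensity + 16) scale, with the 4 controls averaged to 0, for lysosomal lists (left) and cell type markers (right, with a wider axis), with the number of genes in brackets. The Cre+ arrays lie between 0.08 and 0.21 for the 36 genes, between 0.44 and 0.58 for the cathepsins and legumain, and between 1.12 and 1.26 for microglia and macrophage markers.

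Other lysosomal genes were read from lists that the 36 do not overlap, 69 of 76 listed genes being measured. Of these 3 were called higher and 0 lower by limma, and all 3 were proteases among the 12 cathepsins and legumain. *Lgmn*, for the asparaginyl endopeptidase legumain, rose by 0.81 ± 0.07 (adjusted p = 0.0045), *Ctsd* by 0.77 ± 0.09 (adjusted p = 0.0171) and *Ctsb* by 0.75 ± 0.07 (adjusted p = 0.0080). With only Cre+ replicates 3 and 4, or against the 2 male controls alone, 0 of these were called. Over all 18193 genes 0 and 5 were then called higher, against 39 with all arrays. The 12 proteases had a median log2 fold change of 0.47, with 9 at an unadjusted p under 0.05 and 8 with every Cre+ array above every control. Among 13 other hydrolases and cofactors 0 were called and the median was 0.06, with *Gnptab*, which builds the mannose 6-phosphate tag, at 0.23 (adjusted p = 0.675) and *Arsg* at -0.29 with every Cre+ array below every control (adjusted p = 0.682) as the 2 with an unadjusted p under 0.05. Among 16 other membrane proteins and transporters 0 were called and the median was 0.06, with *Laptm5*, a protein of blood-lineage cells, at 0.57 without overlap (adjusted p = 0.20) and *Laptm4b* at 0.49 (adjusted p = 0.466) among 3 higher with an unadjusted p under 0.05. The 1 lower at that p was *Mfsd8*, at -0.18 (adjusted p = 0.721).

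Of 15 other subunits of the V-ATPase, 0 were called, 0 had an unadjusted p under 0.05 and the median was 0.02, with *Atp6v0a2* at -0.20 and *Atp6v0b* at 0.10. Among 13 genes of the MiT factor family and of nutrient sensing, 0 were called. *Tfec*, a relative of TFEB found in macrophages, was the only one with an unadjusted p under 0.05, at 0.65 (adjusted p = 0.535), from intensities of 3.8 to 19.3 on the Cre+ arrays and 0.3 to 5.8 on the controls, and *Mitf* gave 0.33. The E-box stood in 16 of 57 promoter windows of the other lysosomal genes (28.1%), and the longer palindrome in 9 (15.8%).

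Markers of microglia and macrophages moved with the genotype on the same arrays. The paper reports that microglial signature genes were up-regulated on these samples, so that the direction of the markers is not independent evidence. Of 15 markers of microglia and macrophages 10 were called higher, where 0.214% of all genes were. In 13 of the 15 every Cre+ array lay above every control, where 2.48% of all genes did. The mean of the 15 stood at 1.12 to 1.26 on the Cre+ arrays and -0.11 to 0.09 on the controls. *Itgam* was near 0 on all arrays (0.4 to 12.3). The spread between the 4 Cre+ arrays was narrow in this mean, but not in each marker. *Mrc1*, 1 of these microglia and macrophage markers, read 234.1, 130.8, 27.6 and 33.9 on Cre+ replicates 1 to 4. On the controls it read 5.7 to 29.2. In brain tissue a larger number of such cells and more RNA per cell cannot be told apart, and the part of these cells in the values of *Grn*, *Cd68*, *Hexa*, *Gusb* or *Lipa* was not tested. Markers of neurons stood at -0.29 to 0.18 and those of neural progenitors at -0.20 to 0.03 on the Cre+ arrays, with 0 of 8 called, also at an unadjusted p, in each list. Endothelial markers stood at 0.65 and 0.46 on Cre+ replicates 1 and 2 and at 0.09 and 0.07 on replicates 3 and 4.

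The mesenchyme markers, of which 0 of 11 were called and 1 had an unadjusted p under 0.05, stood at 2.45 and 3.27 on Cre+ replicates 1 and 2, at -0.12 and -0.34 on replicates 3 and 4, and at -0.40 to 0.49 on the controls. In 10 of the 36 lysosomal genes both replicates 1 and 2 lay above both replicates 3 and 4 (27.8%, against 19.2% of all genes), and in 5 both lay below (13.9%, against 21.8%). The first group held *Grn*, *Gusb*, *Cd68*, *Gla*, *Man2b1* and *Lamp2* of the 10 genes with an unadjusted p under 0.05, together with *Asah1*, *Manba*, *Tpp1* and *Laptm4a*. The second held *Galc*, *Smpd1*, *Ppt1*, *Atp6v0d1* and *Atp6v1h*. With only Cre+ replicates 3 and 4 against the 4 controls, *Hexa* gave 0.35, *Gaa* 0.34, *Lipa* 0.28 and *Arsa* 0.20, near the values of all arrays. *Grn* gave 0.66, *Gusb* 0.37, *Cd68* 0.37 and *Man2b1* 0.23, and *Gla* and *Lamp2* gave 0.14 and 0.13, less than with all arrays by over 1.5 times in both. Of the 36 genes 8 then were higher at an unadjusted p under 0.05, beside 712 of all 18193 genes.

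*Gla*, *Lamp2*, *Ids* and *Atp6ap1* lie on the X chromosome, and 2 of 4 controls but 0 of 4 Cre+ arrays had the female signal. Against the 2 male controls alone the log2 fold change was 0.19 for *Gla*, 0.26 for *Lamp2*, -0.0034 for *Ids* and 0.10 for *Atp6ap1*. *Grn* gave 0.89, *Hexa* 0.43, *Gusb* 0.44, *Lipa* 0.28 and *Cd68* 0.53 against the same 2 controls. The part of the sex of the embryo in these values was not tested further.

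**Figure D4:**
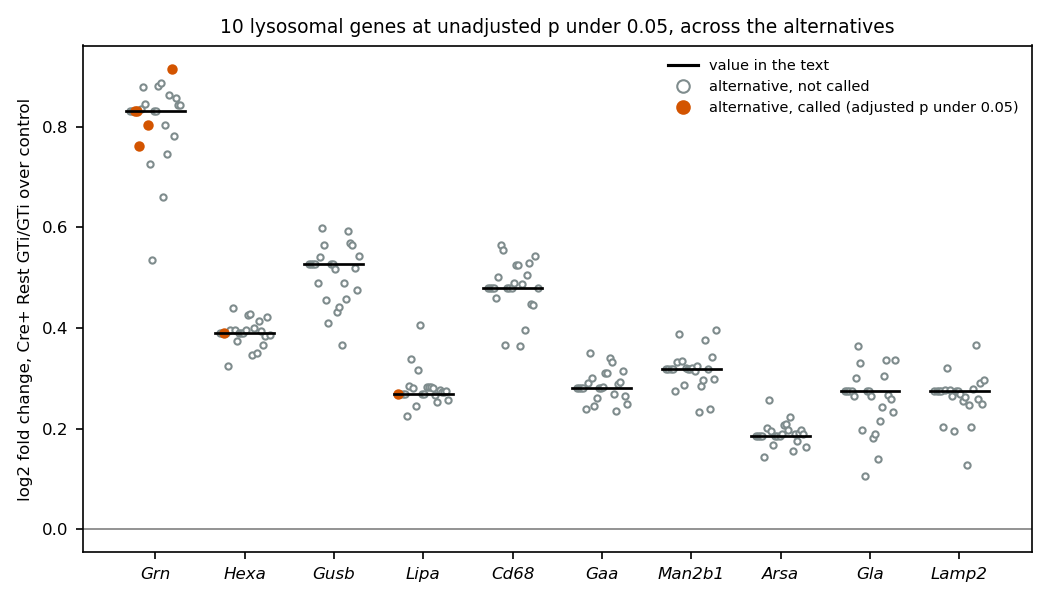
Log2 fold change of the 10 lysosomal genes with an unadjusted p under 0.05, as given in the text (black line) and under each of 24 alternatives (points; filled orange where the adjusted p was under 0.05). All points lie above 0, *Grn* is orange in 5 alternatives, and *Hexa* and *Lipa* in 1 each.

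The 10 genes with an unadjusted p under 0.05 had a positive fold change under each of 24 other ways of processing the arrays. *Grn* ranged from 0.54, with gene-specific probe sets alone, to 0.92, without Cre+ replicate 4, and was called in 5 of the 24. *Hexa* ranged from 0.32 to 0.44, *Gusb* from 0.37 to 0.60, *Cd68* from 0.37 to 0.56 and *Lipa* from 0.22 to 0.41. Of the other 26 genes, 19 changed sign in at least 1 alternative, all of them genes with a log2 fold change of at most 0.10 in either direction, and *Lamp1*, *Scarb2*, *Fuca1*, *Tpp1*, *Tfeb*, *Naglu* and *Atp6ap1* did not.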

How the data were processed

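Total RNA of E12.5 mouse brain was hybridised to 8 arrays, 4 for each genotype, grouped by GEO title and genotype labels. Per the authors' methods the arrays were RMA-normalized and log2-transformed. The labels, too, name RMA and give no version. What the authors deposited is nevertheless intensity on a linear scale, from 0 upward and with unequal array distributions, and the step behind it is not stated. Here 64 Affymetrix control probe sets were left out and 45037 were quantile-normalized, 16 was added and log2 taken. Genotypes were compared with lmFit and eBayes (limma 3.58.1, R 4.3.3), two-sided, with Benjamini-Hochberg adjustment over all tested probe sets and a threshold of 0.05. The fit was tested on simulated data. Only the 34945 probe sets that the platform annotation assigns to a single gene were used to name genes, 932 being assigned to several and 9160 to no gene. The number of arrays limits the precision, and 25.4% of genes had means below the added constant. Single values were also tested by exact permutation over arrays (smallest possible two-sided p 0.0286). Promoter windows came from RefSeq, GRCm38.p6, and motifs were searched as letters. Residuals of arrays with the same replicate number correlated at -0.20 to 0.04, and those with different numbers at -0.10 to 0.15. These ranges overlap and show no pairing by number, but so few arrays cannot settle it. The paper's title of the dataset calls the embryos littermates, and which arrays share a litter is not stated. The main fit is unpaired. The 36 genes and the other lists were chosen with earlier results of these data known. All 36 are accounted for. From each list of other lysosomal genes the called genes, otherwise up to 2 with the smallest p, are named, and marker lists are given by counts and means. *Mfsd8*, *Hoxb3* and *Mrc1* were named after their values were seen. *Asah1*, *Galns*, *Npc1* and *Atp6v1h* had no promoter window, and 7 of the other listed genes were not analysed here. The methods' t-test, scalings, added constants, filters, choice of probe set, array weights, sex, pairing and leaving out arrays were tried as alternatives.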

Additional observations from a re-analysis of the deposited data

Results flagged for a closer look

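In 7 of 72 groups of 4 arrays, 1 array stood apart from the other 3 of its genotype by Dixon's ratio, where chance gives about 1 in 20. In Cre+ Rest GTi/GTi brain these were *Galc* on replicate 3, at 494.9 against 444.6 to 450.7, *Atp6ap1* on replicate 3, at 1578 against 1400 to 1428, and *Naglu* on replicate 2, at 74.9 against 58.3 to 60.4. In controls they were *Ids* on replicate 2, at 3153 against 3980 to 4026, and *Manba* on replicate 2, at 57.7 against 49.9 to 50.5. *Lipa* on control replicate 4 read 286.8 against 297 to 298.3, and *Grn* on control replicate 1 read 629.5 against 715.9 to 733.8. In both *Lipa* and *Grn*, whose groups do not overlap as given above, the array that stood apart was the lowest of the controls. Without control replicate 1 the log2 fold change of *Grn* was 0.78, and without control replicate 4 that of *Lipa* was 0.26.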

How the results depend on the processing

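Of 24 alternatives, 6 moved the number of the 36 genes called higher from 0. It was 1 with the methods' t-test with equal variances (*Lipa*), 2 with trend and robust (*Hexa* and *Grn*), and 1 (*Grn*) with a common median, a constant of 50, a filter on dim probe sets or Cre+ replicate 4 left out (0 to 1 when each array was left out in turn). The number higher with an unadjusted p under 0.05 went from 10 to 4 with no scaling, to 6 with *Eif2s3y* as covariate, to 6 with male controls alone, and to 6 to 9 with each array left out, lowest without Cre+ Rest GTi/GTi replicate 2. Over all genes that number went from 716 to 459, 507, 499 and 588 to 899 in the same order. The 9 genes without overlap became 0 with no scaling and 6 with a common median. They became 7 of 35 with gene-specific probe sets alone, and 9 to 12 with each array left out. Over all genes, those with every Cre+ array above every control went from 452 to 206, 308, 448 of 17903, and 646 to 819 in the same order. With a common median 1 of the 36 and 599 of all genes had every Cre+ array below every control. The median log2 fold change of 0.07 became 0.012 with a common median and 0.13 with no scaling, and 0.05 to 0.10 with each array left out. Less the median of all genes it was 0.07, 0.06 and 0.08. The 3 other lysosomal genes called became 0 with unequal variances, no scaling, male controls alone or Cre+ replicates 3 and 4 alone, and 1 with *Eif2s3y* as covariate. Over all genes, the 39 called higher became 0, 2, 5 and 0 in the same order, and 13 with the covariate. The cause was not tested, and only some of these settings use fewer arrays. Whether the replicate numbers pair the arrays is not known. With the replicate number as a block, 0 of the 36 and 0 of the other lysosomal genes were called, and 7 of the 36 had an unadjusted p under 0.05. Over all genes 0 were then called higher, and 668 were higher at that unadjusted p. *Rest* stayed below 0 in all 24, at -0.70 to -0.29 with each array left out. Dim genes such as *Tfeb* are limited by signal near background.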
